A study of Drosophila melanogaster with 312 samples.

Results

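The Turandot genes of Drosophila melanogaster were analysed by name: TotA, TotB, TotC, TotF, TotM, TotX and TotZ, 7 genes in all. Of these, TotA, TotC, TotM and TotX were among the 13212 genes with normalized read counts. TotB, TotF and TotZ were found by their FlyBase identifiers among the 17478 genes with raw counts, and their normalized counts were computed here from the raw counts and the size factor of each library. RNA was measured in 312 libraries of whole virgin adults. The libraries cover 6 populations: Replicate 1 and Replicate 2 of the short sleepers, of the long sleepers and of the unselected controls. All 6 descend from 1 outbred population made from inbred lines of the Drosophila Genetic Reference Panel, and each generation had equal numbers of males and females as parents, picked for short or for long night sleep, or at random in the controls. Each population was sampled at generation 0, before selection, and at generations 2 to 13, with 2 pools of 10 females and 2 pools of 10 males each time. The pooled flies were taken at random from those left once the parents had been picked, so they were not the parents themselves. They had been held as virgins for 4 days and recorded for sleep for 4 days, and all were frozen at midday.

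Turandot genes encode small secreted peptides that the fat body releases into the haemolymph under stress, such as bacterial infection or heat. Their best studied member, TotA, needs the JAK/STAT pathway, in which cytokines of the unpaired family reach the fat body, and also receives input from the stress MAP kinase Mekk1 and from Relish, the transcription factor of the IMD pathway against bacteria. Since whole flies were pooled, fewer cells that express a gene and less RNA per cell cannot be told apart in any value given here.

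Of the 7 genes, 5 share a stretch of chromosome arm 3R. In the BDGP6.54 annotation, which uses release 6 of the genome as the counting did, TotA lies at chr3R:20871036-20871700, TotC at chr3R:20872988-20873580, TotB at chr3R:20873938-20874522 and TotZ at chr3R:20877736-20878363, all on the plus strand. TotX lies at chr3R:20904917-20905518 on the minus strand, inside a span of 34483 bases that holds 12 annotated genes. TotM at chr2L:5329857-5330464 on the plus strand and TotF at chr2L:19911815-19912377 on the minus strand stand alone on arm 2L. TotX overlaps Grik, a glutamate receptor gene on the plus strand, and TotF overlaps sick on the plus strand. The strand setting of the counting is not given in the sources used here, so reads of TotX and Grik may not be told apart. Only reads with a unique position were counted, so reads from stretches identical between related members were dropped, and levels of these members are uncertain to that extent. Over the 156 libraries of each sex, the Spearman correlation of TotX with Grik was 0.16 in females and -0.12 in males.

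The totals on genes lay between 31539064 and 109389826 reads a library, with a median of 41317004, and intervals from counting error alone are far narrower than the spread between pools described below. The sum of 13 female germline and eggshell genes was between 204.2 and 2040 normalized counts in 153 male libraries, against 15883 to 157672 in the other 3. The sum of 12 male germline genes reached 3356 in 1 female library of the Replicate 2 controls, against at most 270 in the other 155. These 4 libraries go against their labels in part, and the tests of slopes, swings, levels by scheme and sex differences of the Turandot genes were also run without them, with no change in the calls. The Turandot counts of the 4 were inside the range of the other libraries of their sex. Fat body markers (6 genes, among them Lsp2 and apolpp, which encode haemolymph proteins) summed to a median of 29134 in 155 female libraries and 65486 in 153 male libraries. These ranges, 8560 to 47137 and 35289 to 128507, overlapped between the sexes.

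TotA had normalized counts of 40.3, 910.7 and 15246 in females (lowest, median and highest of 156 libraries). In males it had 130.7, 1488 and 27451. TotC, its neighbour, had 50.91, 999 and 15222 in females and 167.3, 844.9 and 23516 in males. For both genes the ranges of the sexes overlapped almost wholly, and the highest library of a sex stood more than 100-fold above the lowest.

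TotM had 16.17, 288.2 and 8640 normalized counts in females, and 51.27, 232.7 and 9440 in males. TotX had 6.922, 65.07 and 805 in females, and 75.72, 505.1 and 2548 in males. TotX was the least variable of these members in both sexes and the one whose libraries separated best by sex. The plot of counts by generation shows this as 2 bands for TotX and wide overlapping clouds for the other genes.

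**Figure D1:**
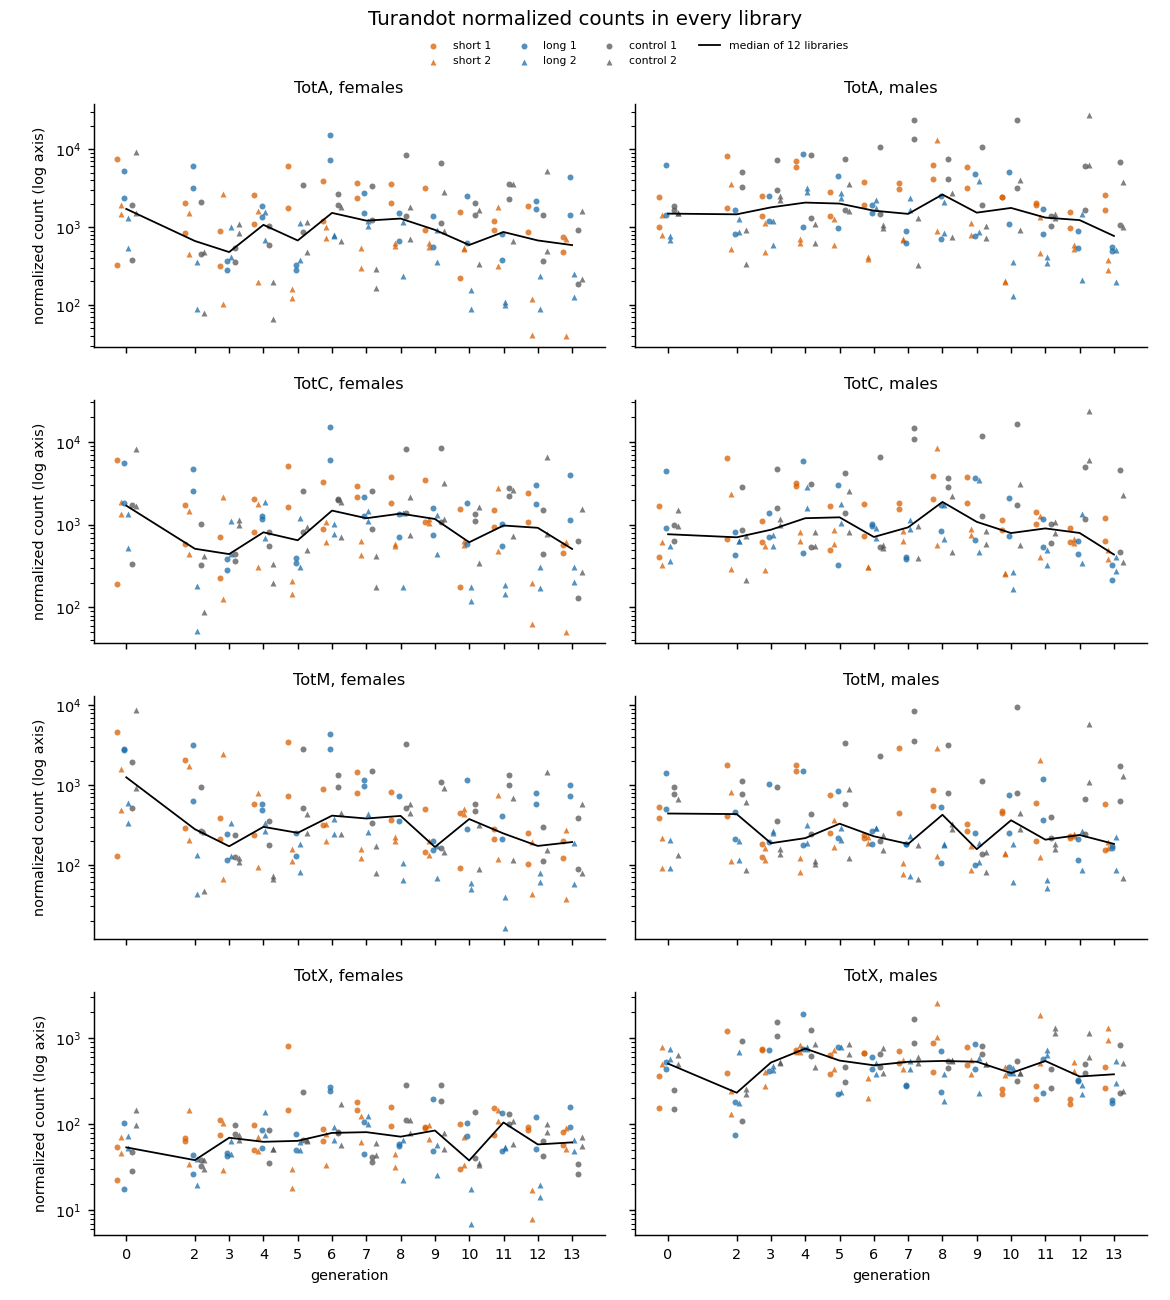
Normalized counts (log axis) of TotA, TotC, TotM and TotX by generation, females left and males right, 1 point a library; colours give the selection scheme, circles Replicate 1 and triangles Replicate 2 populations, and the line joins the medians of 12 libraries. Male TotX medians stay above those of females in each generation, and Replicate 1 points of TotA, TotC and TotM tend to lie above Replicate 2 points.

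TotB was near the limit of detection, with 0, 1.946 and 40.63 normalized counts in females and 0.8294, 6.019 and 36.53 in males. It had at least 1 read in 123 of 156 female libraries and in all 156 male libraries. TotZ gave 71 reads in all females together and 48 in all males, and TotF 7 and 16. TotF had no read in 150 female and 142 male libraries, and no library had more than 2 of its reads. A count of 0 allows up to 3 reads, at most 3.784 normalized counts in a female library and 4.052 in a male library, so TotF and TotZ were not detectable at this depth in most libraries. These 3 genes did not reach the level required for testing, and 4 members were tested in each sex.

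Per kilobase of exon, the medians in females ran from TotC with 1885 normalized counts over TotA with 1573, TotM with 522.2 and TotX with 108.1 to TotB with 3.699. In males TotA led with 2570, then TotC with 1594, TotX with 839, TotM with 421.6 and TotB with 11.44. Neighbours in this order were not fixed in every library. TotC per kilobase stood above TotA in 105 of 156 female libraries, and TotA above TotC in 133 of 156 male libraries. TotX stood above TotM in 101 of 156 male libraries but in 6 of 156 female libraries. TotC stood above TotM in 148 female libraries and TotM above TotX in 150, so these steps of the female order held in most libraries.

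The members varied widely between the paired pools, that is, flies of 1 sex sampled together from 1 population. The SD between the 2 pools, over 78 pairs on the scale of log2(normalized count + 1), was 1.25 for TotA, 1.20 for TotC, 1.27 for TotM and 0.67 for TotX in females. The median over the 10076 genes tested was 0.14, and TotA, TotC and TotM exceeded more than 99.0% of these genes. In males it was 1.05, 1.16, 1.20 and 0.63 in the same order of genes, against a median of 0.22 over 13849 genes. Without the 4 libraries in doubt the male median of all genes was 0.13, while those of TotA and TotC were 1.04 and 1.15. Genes expressed at a like level, within 1 log2 unit, gave the same picture in males: only 1 of 2308 such genes had a larger spread than TotA, and 1 of 1520 than TotM.

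**Figure D2:**
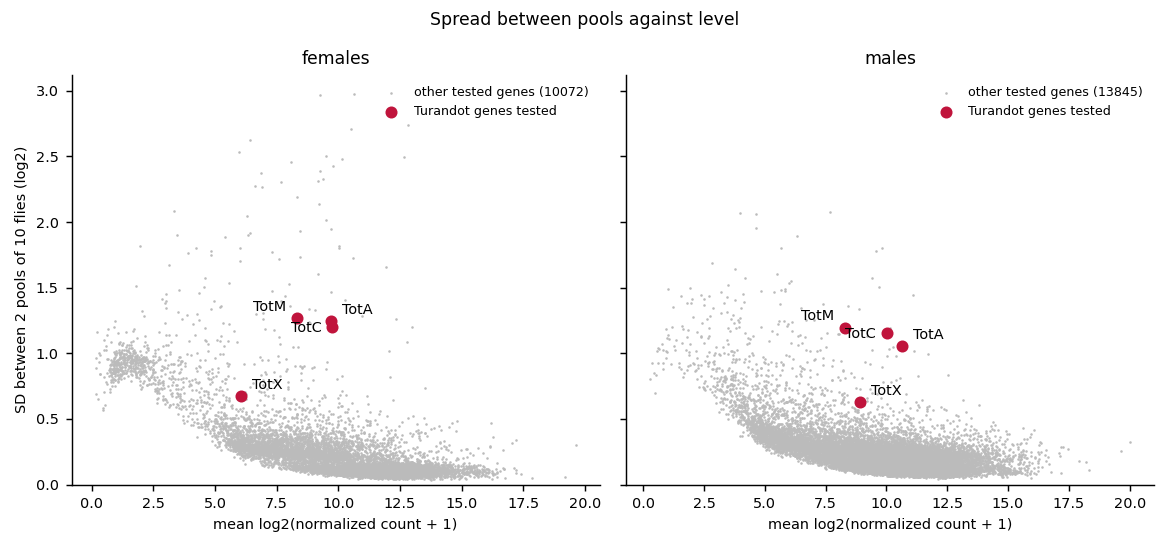
SD between the 2 pools of 10 flies (log2) against the mean level of each tested gene, females left and males right; grey points are the other genes and red points the Turandot genes tested. TotA, TotC and TotM lie between 1.05 and 1.27, far above the band of genes at their level, with TotX at 0.67 and 0.63.

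The largest gap between pools was that of TotM in Replicate 2 short-sleeper females at generation 3, with 2454 counts in 1 pool and 66.91 in the other, a 36.7-fold difference. TotA in the same pools had 2678 and 101.6. In Replicate 1 short-sleeper females at generation 0, TotC had 6107 counts in pool 1 and 194 in pool 2. The first of these pools was also high for TotA, with 7550 counts against 330.5, and for TotM, with 4671 against 129.3. In males the widest gap of TotA was that of the Replicate 2 short sleepers at generation 8, with 13003 and 883.9. Pools differed by more than 2-fold in 49 of 78 female pairs and 39 of 78 male pairs for TotA, but in 23 and 18 pairs for TotX.

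The spread between pools was also computed by population. Among females the pool SD of TotA was smallest in the Replicate 1 long sleepers, at 0.78, and largest in the Replicate 2 short sleepers, at 1.53. Among males it was smallest in the Replicate 1 short sleepers, at 0.66, and largest in the Replicate 1 controls, at 1.37. Each of these values rests on 13 pairs of pools, and differences between populations in this spread were not tested.

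TotA, TotC and TotM moved together from pool to pool, while TotX and TotB did so less or not at all. TotA and TotC differed between pools in the same direction in 75 of 78 female pairs and 68 of 78 male pairs, and the Spearman correlation of their pool differences was 0.99 in females and 0.95 in males. TotA and TotM, which lie on different chromosomes, did so in 67 and 58 pairs, with correlations of 0.91 and 0.75. TotX followed less closely: it shared the direction of TotA in 55 female and 49 male pairs, with correlations of 0.47 and 0.34. In males TotX and TotM shared their direction in only 41 of 78 pairs, with a correlation of 0.15, against 54 pairs and 0.41 in females. TotB, with few reads, had correlations of 0.57 and 0.38 with TotA, and of 0.22 and 0.04 with TotX. Both genes of a pair come from the same library, so depth and the flies pooled are shared by these points, and the values are descriptions over 78 pairs.

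**Figure D3:**
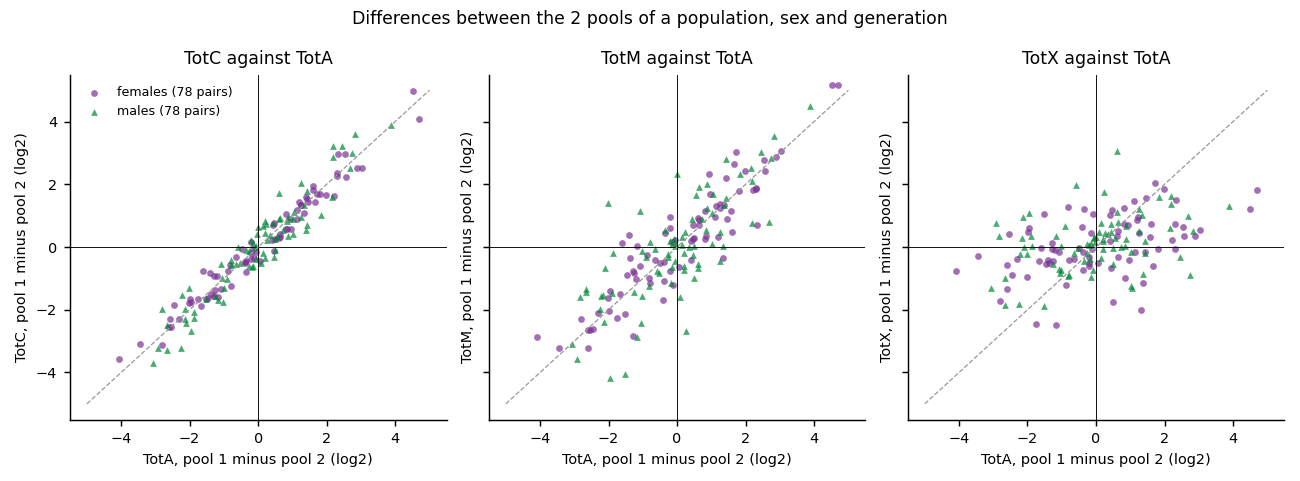
Pool 1 minus pool 2 (log2) of TotC, TotM and TotX against that of TotA, 78 female pairs as purple circles and 78 male pairs as green triangles; the dashed line marks equal differences. TotC follows the line closely, TotM less so, and TotX scatters, with Spearman correlations in females of 0.99, 0.91 and 0.47.

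The same libraries thus carried the extreme values of several members. The highest male library for TotA and TotC was pool 2 of the Replicate 2 controls at generation 12, with 27451 and 23516 counts, and its TotM count of 5783 was the 3rd highest. The other pool of that population and generation had 6244 counts of TotA. The highest female library for both was pool 2 of the Replicate 1 long sleepers at generation 6, with 15246 and 15222 counts, and its other pool, with 7230, was the 5th highest for TotA. Of the 16 highest libraries of each gene in a sex, TotA and TotC shared 13 in females and 13 in males. TotA and TotX shared 7 in each sex.

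On the log2 scale, the sums of squares over 156 libraries were split by the design. Pools of the same population and generation held 27.9% for TotA, 30.3% for TotC, 29.5% for TotM and 24.4% for TotX in females. In males they held between 25.8% for TotA and 35.4% for TotC. The largest share in all 4 members and both sexes except male TotC was that of population by generation. It ran from 30.6% for female TotM to 48.9% for female TotX. This part covers samplings that differed from what their population and their generation would give. A sampling is measured by its pools, so this part also holds spread between pools. The shares were not corrected for this, and their order does not show which source varies more. For male TotC the pools held more, 35.4% against 33.7%. The selection scheme, averaged over generations, held at most 1.34% in females (TotX) and between 3.05% (TotX) and 9.43% (TotA) in males. A change of a scheme over generations falls in the part of population by generation and was not split off.

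Between the sexes, the female mean of TotX was below its male mean in 78 of 78 combinations of population and generation, and in 76 of them both female pools were below both male pools. The exceptions were the Replicate 1 short sleepers at generation 5, where 1 female pool reached the highest female count of 805, and the Replicate 2 short sleepers at generation 2, which hold 1 of the male libraries in doubt. By edgeR's quasi-likelihood test over 312 libraries, female minus male was -2.82 ± 0.10 (SE) log2 units for TotX, which was 7.04-fold higher in males, with an adjusted p of 8.16e-86. Without the 4 libraries in doubt it was -2.83 ± 0.10.

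TotA had lower means in females in 60 of 78 combinations. In 31 of these both female pools were below both male pools, and in 9 others both were above. Female minus male was -0.83 ± 0.15 log2 units by edgeR, 1.78-fold higher in males, with an adjusted p of 6.64e-08, and -0.80 ± 0.15 without the 4 libraries in doubt. TotC differed by -0.23 ± 0.15 (female minus male, adjusted p = 0.125, edgeR, 95% interval -0.51 to 0.06), and its females were lower in 48 of 78 combinations. TotM differed by 0.04 ± 0.16 (adjusted p = 0.807, edgeR, interval -0.27 to 0.35), with females lower in 42 and higher in 36.

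Of the 4 members tested, 2 passed the threshold of an adjusted p under 0.001, against 98.4% of the 13915 genes tested, of which 36.9% were higher and 61.6% lower in females. The share of members that passed is below that background. The median difference of all genes was -1.28 log2 units, and relative to it TotX stood at -1.53, TotA at 0.45, TotC at 1.06 and TotM at 1.32. TMM normalization moved all differences by 0.41. With it female minus male was -0.41 for TotA with an adjusted p of 0.00557 by edgeR, which is not past the threshold, 0.19 for TotC, 0.45 for TotM with an adjusted p of 0.00443, and -2.40 for TotX. TotA also lost its call without the second pools, with an adjusted p of 0.00121. Without a filter on low counts, female minus male was -1.17 ± 0.13 for TotB by edgeR, with an adjusted p of 1.6e-16, from 608 reads in all females and 1060 in all males. The sum of fat body markers had a lower median in females, and TotX, TotA and TotB were lower there too, while TotC and TotM did not pass. A lower level in females is common, with 61.6% of all genes past the threshold in that direction, so the shared direction carries little weight. Its part in the differences of the Turandot genes was not tested.

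**Figure D4:**
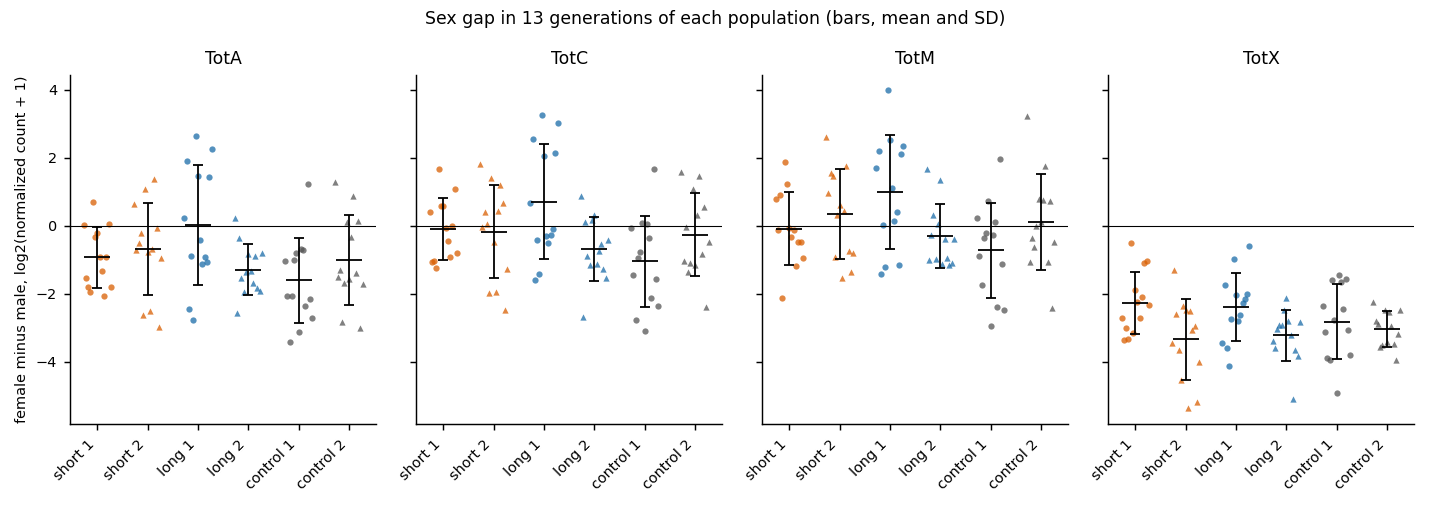
Female minus male log2(normalized count + 1) of TotA, TotC, TotM and TotX in each of 13 generations (points), by population, with the mean and SD as bars. All 78 points of TotX lie below 0, and those of the other genes lie on both sides, with the Replicate 1 long sleepers reaching 2.63 for TotA and 3.99 for TotM.

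The gap between the sexes was also computed by population. For TotX it lay between -2.27 ± 0.92 (SD, n = 13 generations) in the Replicate 1 short sleepers and -3.34 ± 1.19 in the Replicate 2 short sleepers. The mean of female minus male for TotA was -0.93 ± 0.90 in the Replicate 1 short sleepers, -0.68 ± 1.37 in the Replicate 2 short sleepers, 0.02 ± 1.78 in the Replicate 1 long sleepers and -1.30 ± 0.75 in the Replicate 2 long sleepers. It was -1.61 ± 1.26 in the Replicate 1 controls and -0.996 ± 1.32 in the Replicate 2 controls. The Replicate 1 long sleepers had female pools above both male pools in 5 generations for TotA and TotC and in 6 for TotM. At generation 6 their difference was 2.63 for TotA, 3.27 for TotC and 3.99 for TotM. Tested within a scheme by edgeR, TotX passed in all 3 schemes, and TotA in the controls, at -1.27 ± 0.27 with an adjusted p of 4.62e-06, against -0.67 ± 0.26 in the short sleepers (adjusted p = 0.0125) and -0.55 ± 0.27 in the long sleepers (adjusted p = 0.0402). Of all genes, 97% passed in the short sleepers, 97.2% in the long sleepers and 97% in the controls, with 60.8%, 60.9% and 60.7% lower in females. No member passed the test of whether the sex difference depends on the selection scheme, against 10.5% of all genes. The adjusted p-values by edgeR were 0.255 for TotA, 0.0807 for TotC, 0.256 for TotM and 0.812 for TotX. Female minus male of TotC was 0.01 ± 0.26 in the short sleepers and 0.13 ± 0.26 in the long sleepers, and -0.81 ± 0.27 in the controls.

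Among generations, TotM had the smallest p of the 4 members for a change of its sex difference. At generation 0 its females were higher in 6 of 6 populations, by 1.72 ± 1.11 on average (SD, n = 6), and both female pools were above both male pools in 4 of them. At generation 6 females were again higher in 6 of 6, by 1.19 ± 1.43. At generation 12 the mean was -0.73 ± 1.54, with females lower in 5 of 6. The test of whether the difference depends on generation gave an adjusted p of 0.00489 for TotM by edgeR, which did not pass, and between 0.0564 and 0.276 for the other members. Of all genes, 32.2% passed. TotX remained lower in females in 6 of 6 populations at each of the 13 generations, with means between -3.60 at generation 4 and -2.37 at generation 6.

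Swings from generation to generation that the 6 populations shared were tested in each sex. In females only TotM passed, with an adjusted p of 2.87e-06 by edgeR, against 92.5% of all genes. Its female libraries had 129.3, 1249 and 8640 counts at generation 0 (lowest, median and highest of 12), against 37.12, 192.6 and 1010 at generation 13. These ranges overlapped, and the geometric means of 1156 and 196.2 differ by 5.9-fold. Without generation 0 the adjusted p of TotM was 0.12, and without the second pools it was 0.022. No member passed in males, against 86.3% of all genes, where the smallest adjusted p was 0.00206 for TotC. The members vary more between pools than most genes, which lowers the power of the tests over libraries for them. A missing call is therefore not a sign of stable levels. Between their highest and lowest generations the 4 members still differed by 2.5-fold (TotM) to 3.0-fold (TotX) in males. TotA and TotC were highest at generation 6 in females, at geometric means of 1833 and 1737, and at generation 8 in males, at 2499 and 1718. Both were lowest at generation 13 in each sex.

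TotX had other extreme generations than TotA and TotC in males, while in females it shared their highest generation and differed in the lowest. In males its geometric mean was highest at generation 4, at 806.7, and lowest at generation 2, at 270.8, with adjusted p = 0.00779 by edgeR for the swings. In females it was highest at generation 6, at 92.03, and lowest at generation 2, at 42.11, with adjusted p = 0.00485. Neither passed the threshold.

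The level of the members was compared between schemes over generations 2 to 13, with the 6 population means of log2 counts as the units. Geometric means of TotA in females were 1392 and 405.5 in Replicate 1 and Replicate 2 of the short sleepers, 1364 and 368.7 in those of the long sleepers, and 1346 and 665.1 in those of the controls. In males they were 2794 and 704 in the short sleepers, 1362 and 992.1 in the long sleepers, and 4250 and 1514 in the controls. In females the populations of the 3 schemes overlapped. In males both long-sleeper means lay below both control means, and the short-sleeper means overlapped with those of the other schemes. The share of all genes with such an order was not computed, and with 2 populations a scheme it carries little weight. By limma, no gene of the 10076 tested in females or the 13849 in males passed (percent called 0), with 933 and 733 at an unadjusted p under 0.05. The adjusted p-values of the members in the test over the 3 schemes were between 0.65 and 1.00. Pools of a population are not replicates of its scheme, so this test has 2 populations a scheme. Male TotX had the smallest unadjusted p, with long minus control at -0.45 ± 0.10 on the log2 scale and an adjusted p of 0.9996 by limma.

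The 2 populations of a scheme were also set against each other, a comparison chosen after their values were seen and given as a description. Populations within a scheme held 20.6% of the sums of squares of TotA in females and 22.5% in males. TotA, TotC and TotM had a higher mean in the Replicate 1 population than in the Replicate 2 population of all 3 schemes in both sexes, and so did TotX in females. Of all genes, 15.6% did so in females and 14.4% in males. The opposite order in all 3 schemes was more common, with 2455 of 10076 genes in females and 3064 of 13849 in males. A like order over the 3 schemes, in either direction, was therefore frequent. In females all 4 members had their 3 Replicate 1 populations above all 3 Replicate 2 populations, as did 5.99% of genes, and in males TotM alone did so, against 6.64%. Replicate 1 minus Replicate 2 was 1.56 ± 0.19 for TotA, 1.20 ± 0.22 for TotC, 1.43 ± 0.29 for TotM and 0.65 ± 0.15 for TotX in females by limma. In males it was 1.31 ± 0.30, 0.87 ± 0.24 and 1.28 ± 0.21 for TotA, TotC and TotM, and -0.11 ± 0.07 for TotX. No gene passed an adjusted p of 0.001 by limma, with 1498 in females and 1877 in males at an unadjusted p under 0.05, and the members had adjusted p-values between 0.117 and 0.621.

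The difference was spread over the generations. Of 39 pairs of populations of a scheme and generation, Replicate 1 was higher in 32 for female and 32 for male TotA, in 31 and 35 for TotM, and in 30 and 30 for TotC. Without the 4 libraries in doubt the count of male TotA was 33. TotX had 27 in females and 19 in males. At generation 0, before selection, female TotA was higher in Replicate 1 in 1 of 3 schemes and male TotA in 3 of 3. What the populations with the same replicate number share apart from the number is not given in the sources used here.

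Slopes over generations were compared between selected and control populations, since a response to selection would build up over time. The 4 slopes that the short- and long-sleeper populations add to the slope shared with the controls were tested together for each gene. No member passed in either sex, against 9.92% of all genes in females and 5.89% in males. In males the adjusted p-values by edgeR were 0.0209 for TotA, 0.00842 for TotC, 0.0287 for TotM and 0.0676 for TotX. In females they were 0.232, 0.398, 0.583 and 0.38.

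In males the added slopes of TotA, TotC and TotM were negative in each of the 4 selected populations. All 4 are set against the same control slope, and the share of all genes with this pattern was not computed. The selected populations' own slopes, by least squares on log2 counts, lay between -0.15 ± 0.06 and -0.03 ± 0.04 for TotA. They lay between -0.10 ± 0.06 and 0.004 ± 0.06 for TotC, and between -0.11 ± 0.06 and 0.05 ± 0.07 for TotM. Long minus control was -0.28 ± 0.07 log2 units per generation for TotA, -0.28 ± 0.07 for TotC and -0.24 ± 0.07 for TotM, with adjusted p-values of 0.012, 0.00869 and 0.0477 by edgeR. Of all genes, 0.599% passed that test. Short minus control was -0.21 ± 0.07, -0.22 ± 0.07 and -0.15 ± 0.07, with adjusted p-values of 0.092, 0.0679 and 0.324, and 0.823% of genes passed. For TotX, long minus control was -0.07 ± 0.04 and short minus control -0.01 ± 0.04. Both differences share the control libraries. Without generation 12, long minus control was -0.17 for TotA and TotC and -0.15 for TotM, with adjusted p-values between 0.374 and 0.507 by edgeR. Without the second pools it was between -0.11 for TotA and 0.03 for TotM. In females, long minus control of TotA was -0.15 ± 0.07 (adjusted p = 0.209, edgeR, where 0.635% of genes passed), and without generation 0 it was -0.31 ± 0.09 (adjusted p = 0.02).

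The slope of the controls themselves was 0.19 ± 0.05 log2 units per generation for TotC in males, with an adjusted p of 0.000466 by edgeR, and 26.2% of all genes passed, 14.2% with a positive slope. TotA had 0.15 ± 0.05 and TotM 0.15 ± 0.05, with adjusted p-values of 0.00498 and 0.00642, and TotX 0.01 ± 0.03. The call of TotC rests on few libraries. Without generation 12, which holds the library of 23516 counts, the slope was 0.08 with an adjusted p of 0.206, without the Replicate 2 controls it was 0.12 with 0.25, and without the second pools it was 0.06 with 0.466. Over the 24 alternatives the adjusted p lay between 6.15e-05 and 0.466, and TotC was past the threshold in 15. On the log2 counts of single populations, fitted by least squares, the slope of TotC was 0.06 ± 0.08 in Replicate 1 and 0.12 ± 0.07 in Replicate 2 control males.

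In control females the slope of TotM was -0.13 ± 0.04 log2 units per generation (adjusted p = 0.00714, edgeR), which did not pass, against 42.9% of all genes that did, and without generation 0 the slope was 0.10. TotA, TotC and TotX had slopes between 0.01 and 0.03 in control females. Short minus long slopes, the contrast between the directions of selection, were between -0.08 (TotM) and 0.03 (TotC) in females and between 0.05 (TotX) and 0.08 (TotM) in males. No member passed, against 0.992% of genes in females and 1.86% in males, and the 95% intervals of all 8 differences included 0. For TotA the interval was -0.13 to 0.16 in females and -0.08 to 0.22 in males.

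Genes of the pathways known to act on TotA were counted in the same tests, in which the added slopes passed in 9.92% of all genes in females and 5.89% in males. With populations as replicates all calls of added slopes were lost, those of the genes named next included. Of the JAK/STAT genes, et, a short receptor that dampens the pathway, passed the added slopes in females (1 of 9 tested), with adjusted p = 9.19e-09 by edgeR, and none of 11 passed in males. Of 12 IMD genes, 5 passed in females, namely the peptidoglycan receptor PGRP-LC, PGRP-LB, an enzyme that breaks peptidoglycan down, the kinases Tak1 and ird5, and the inhibitor pirk, and none passed in males. PGRP-LC had added slopes of -0.04 ± 0.01 for short and -0.04 ± 0.01 for long minus control. Those of pirk were -0.07 ± 0.03 and -0.01 ± 0.03, and those of PGRP-LB -0.046 ± 0.018 and -0.005 ± 0.018. Tak1 had -0.001 ± 0.005 and -0.0006 ± 0.005, and ird5 0.004 ± 0.009 and -0.012 ± 0.009. For et they were 0.027 ± 0.020 and 0.010 ± 0.020. The test takes the added slopes of all selected populations together, so a call alone does not show a shift of a scheme against the controls. Of 10 MAP kinase genes, none passed in females and Mekk1 alone in males. Of 13 antimicrobial peptide genes tested in females, Def and Mtk passed, and of 14 in males none did.

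Of the same lists, 11 of 11 JAK/STAT genes differed between the sexes, 6 of them higher and 5 lower in females. This is near the 98.4% of all genes that passed, with 36.9% higher and 61.6% lower. Female minus male was -4.07 ± 0.04 log2 units for the cytokine upd1, -1.08 ± 0.13 for upd2 and -0.70 ± 0.12 for upd3, and it was 1.82 ± 0.03 for the receptor dome and 2.24 ± 0.03 for the kinase hop. Antimicrobial peptides passed in 13 of 14 genes, with 12 lower in females and Drs, the antifungal drosomycin, 1.66 ± 0.08 higher. Their median difference was -2.06, against -1.28 over all genes and -0.53 over the 4 Turandot genes tested.

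The gene most like the Turandot genes in both sexes was Diedel, which encodes a secreted cytokine that acts against the IMD pathway. The mean of TotA, TotC, TotM and TotX on the log2 scale had a Spearman correlation of 0.84 with Diedel over 156 female libraries and 0.54 over 156 male libraries, the highest of 10072 and 13845 other genes. It also ranked first by the differences between pools, at 0.81 in females and 0.57 in males over 78 pairs each, although its median count was 17.9 in females and 25.84 in males. The median gene had a correlation of -0.05 in females and -0.04 in males. In females CG11459, CG13749, CG33460, CG15293, CG4716, CG16799, CG5778, CG18067 and CG3775 followed, at 0.53 to 0.56. In males CG6300, CG5126, CG16799, asRNA:CR45928, Iris, CG43401, NLaz, CG33666 and AdenoK followed, at 0.46 to 0.52. Of these only CG11459, CG13749, CG15293 and CG18067 were also among the 10 highest by pool differences in females. The points share libraries, populations and depth, and the values are descriptions.

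Likeness to the Turandot mean was also summarised over the pathway lists. The median correlation over the JAK/STAT genes was -0.09 in females and -0.01 in males, over the MAP kinase genes -0.08 and -0.04, and over the IMD genes 0.01 and 0.06. Antimicrobial peptides had 0.27 and 0.21 over libraries, but only 0.06 and 0.10 by the differences between pools. Among the genes of these 4 lists, the highest correlations over libraries were those of pirk, at 0.43 in females, and of PGRP-LC, at 0.45 in males. The heat shock genes, at 0.05 and -0.04, stood near the median gene.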

How the data were processed

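Poly-A RNA of pools of 10 whole flies was sequenced as stranded libraries. The authors aligned reads with STAR to FlyBase release 6.07 and counted unique reads per gene with HTSeq, and CASAVA 1.8.2 is named in the submitters' processing notes. Raw counts were deposited for 17478 genes. The deposited normalized read counts (a signal: the raw count divided by a DESeq size factor of the library, 0.74 to 2.47) cover 13212 genes, and the 4266 others hold 1.05% of counts. Counts were tested with edgeR 4.0.16 (quasi-likelihood, the authors' size factors) on all genes above a normalized count of 102 in a female or 48.6 in a male library. The sex models had population by sex and generation by sex effects, the slope models population intercepts, a shared slope and 4 added slopes, and Benjamini-Hochberg adjusted p under 0.001 was required. Schemes were compared with limma 3.58.1 on log2(normalized count + 1), a pseudocount of 1, averaged by population. Alternatives were TMM, no filter, DESeq2 1.42.0, a pseudocount of 10, a replicate block, populations as replicates, and leaving out libraries, populations, generations or pools. The scripts were tested on simulated data before use. Those data had less spread than the members and no variation among populations of a scheme or samplings. They therefore do not show how the tests perform for the members. R 4.3.3 and Python 3.11.15 were used.

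The members and lists were chosen with earlier results of these data known. All 7 members are named, with the 10 genes whose levels were most like the members' mean (members with a median count of at least 10) in each sex, and genes of the lists (97 of 97 matched by symbol) are counted, with examples. Pool numbers differed between 2 labels for 35 libraries, and those in the titles were used. Pools of a population are separate flies, but p-values from libraries measure the spread between libraries of 6 populations, not between independently selected lines. The models have no term for a sampling, so its 2 pools count as separate units. Where pools of a sampling are alike, these p-values are too small. Coordinates are those of the BDGP6.54 annotation.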

Additional observations from a re-analysis of the deposited data

How the results depend on the processing

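Of the 4 members tested, the number past the threshold stayed the same for the added slopes, the short minus long slopes, the level by scheme and both tests of the difference in sex gap under each alternative run. For the sex gap it was 1 with TMM and 1 to 2 over the leave-outs, against 2. For the generation swings it was 0 to 2 over the leave-outs in females, against 1, and in males 1 with DESeq2 and 0 to 1 over the leave-outs, against 0. The sign of some estimates turned. Over the 21 leave-outs the sex gap of TotC lay between -0.426 and 0.00778, with 0.188 under TMM, and that of TotM between -0.184 and 0.286, with 7 of them turned. Short minus long slopes, none past the threshold, lay in females between -0.12 and 0.113 for TotA, -0.0949 and 0.125 for TotC, and -0.0904 and 0.0576 for TotX, and with populations as replicates they were -0.000551 for TotA and -0.00364 for TotC. In males they lay between -0.00278 and 0.141 for TotA, -0.038 and 0.175 for TotC, -0.0683 and 0.233 for TotM, and -0.0414 and 0.15 for TotX. The control slope of TotM lay between -0.165 and 0.0962 in females and between -0.0319 and 0.279 in males, and its long minus control slope in males between -0.431 and 0.0301. The causes were not tested.

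With a replicate block the added slopes passed in 519 genes in females and 505 in males, against 1000 and 816, and 0 members in either sex. The block changed no other count of members: 1 and 0 for the swings, 2 for the sex gap and 0 elsewhere. The sources used here link same-numbered populations by the number alone, and there are only 2 numbers. Their deviations from the scheme means correlated at 0.0996, 0.417 and 0.435 in females and 0.269, 0.46 and 0.412 in males. Counts over all genes moved too. The added slopes passed in 0 genes in either sex with populations as replicates, and in 46 to 1670 genes in females and 72 to 1541 in males over the leave-outs. Short minus long slopes passed in 0 genes with populations as replicates and in 9 to 119 in females (against 100) and 28 to 390 in males (against 257) over the leave-outs. Over the leave-outs the swings passed in 6008 to 9401 genes in females (against 9317) and 7191 to 12366 in males (against 11946), the sex gap by scheme in 286 to 2188 (against 1463) and by generation in 438 to 6130 (against 4474). Depth limits TotB, TotF and TotZ, and for the others the spread between pools exceeded counting error.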

Other observations

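The other lists were counted in the same tests, in which the generation swings passed in 92.5% of all genes in females and 86.3% in males, and the added slopes in 9.92% in females. Heat shock genes passed the swings in 11 of 11 tested in females, and none passed the added slopes there. Antimicrobial peptide genes passed the swings in 2 of 13 in females and 6 of 14 in males, while 11 and 10 of 12 IMD genes did so. The counts of heat shock and IMD genes for the swings are near the shares over all genes.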
